A study of Mus musculus with 6 samples.

Results

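The receptors through which splenic monocytes bind IgG were followed at the transcript level in mice with and without the IL-4 receptor α chain. The 6 genes were taken by name: the activating Fcγ receptor chains Fcgr1, Fcgr3 and Fcgr4, the inhibitory receptor Fcgr2b, the shared γ chain Fcer1g and the neonatal Fc receptor Fcgrt, out of 55421 gene identifiers in the count tables. Bulk RNA was sequenced from the splenic monocytes of 3 IL-4Rα+/+ and 3 IL-4Rα-/- C57BL/6 mice aged between 8 and 16 weeks, and no mouse was treated. The methods of the study name littermates as the controls. The knockout mice lack IL-4Rα in every cell, so monocytes and the cells around them were deficient alike. The cells were isolated from spleen suspensions by magnetic negative selection, which does not separate Ly6C high from Ly6C low monocytes. Each library held between 26807281 and 29033297 reads on genes, and all 6 genes passed the filter on low counts.

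Fcγ receptors bind the constant part of IgG and so link antibodies to phagocytosis, cytokine release and killing by myeloid cells. The high-affinity receptor FcγRI (Fcgr1) and the lower-affinity FcγRIII (Fcgr3) and FcγRIV (Fcgr4) signal through an immunoreceptor tyrosine-based activation motif (ITAM) in the γ chain encoded by Fcer1g, which recruits the kinase Syk. FcγRIIB (Fcgr2b) carries an inhibitory motif (ITIM) in its own tail, which recruits the phosphatase SHIP1, the product of Inpp5d. FcγRIV is known as a receptor of Ly6C low monocytes, and FcRn (Fcgrt), a relative of MHC class I that pairs with B2m, protects IgG from breakdown inside the cell.

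In the mouse genome (GRCm38) Fcgr2b (chr1:170958617-170976547, minus strand), Fcgr4 (chr1:171018920-171029761, plus strand), Fcgr3 (chr1:171051174-171064935, minus strand) and Fcer1g (chr1:171229572-171234365, minus strand) lie together on chromosome 1. Fcgr1 (chr3:96282909-96293969, minus strand) lies on chromosome 3. Fcgrt (chr7:45092990-45103851, minus strand) lies on chromosome 7, 80448269 bases from Il4ra. The ITAM and the ITIM were located in the coding sequence. The ITAM of Fcer1g is spread over exons 4 and 5 of 5 (chr1:171229889-171230072), and the ITIM of Fcgr2b lies in exon 8 of 8 (chr1:170961071-170961088). The ITIM letter pattern (I, V, L or S, then any residue, Y, any 2 residues, and L, V or I) also matched 3 times in Fcgr1 and once each in Fcgr4, Fcer1g and Fcgrt and is given as a description. The known motifs are shown in coding direction, with the tyrosine codons in capitals.
Fcer1g ITAM: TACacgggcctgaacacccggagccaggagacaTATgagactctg
Fcgr2b ITIM: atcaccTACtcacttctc

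Fcgr2b and Fcgr3 have opposite signalling roles but nearly the same outer domains, which matters for counting their reads. Their coding sequences were identical at 87.1% of the 785 aligned bases, against 64% to 68.7% for the other pairs of Fcγ receptor genes, and their longest identical run was 129 bases, against 9 to 14 bases. The stretch around that run crosses from exon 3 into exon 4 of both genes (chr1:170966659-170968096 in Fcgr2b and chr1:171054152-171057807 in Fcgr3), and the 2 bases that differ within 159 are in capitals.
Fcgr2b: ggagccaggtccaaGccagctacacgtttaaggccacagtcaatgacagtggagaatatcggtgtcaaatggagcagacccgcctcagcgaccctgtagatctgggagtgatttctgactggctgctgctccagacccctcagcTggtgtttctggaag
Fcgr3: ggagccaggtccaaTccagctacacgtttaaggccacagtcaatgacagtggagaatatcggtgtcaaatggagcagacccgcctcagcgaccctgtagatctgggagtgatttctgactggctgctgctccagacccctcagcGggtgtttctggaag
A read of 75 bases that falls inside the run cannot be assigned to either gene. Over all annotated exons, 94 of the 1733 stretches of 75 bases in Fcgr3 (5.42%) also occur in Fcgr2b, and 313 of the 5768 in Fcgr2b (5.43%) occur in Fcgr3 or another gene. No such stretch in Fcgr1, Fcgr4, Fcer1g or Fcgrt was shared. Of the 313 shared stretches of Fcgr2b, 82 occur in Gm38204, an antisense gene that overlaps its exons. Such an overlap does not by itself give a read several matches. How reads there were counted depends on the strand column kept, which is not given. Reads with several matches were not assigned to a gene in the deposited counts, so the values of Fcgr2b and Fcgr3 rest largely on the rest of their sequence.

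Il4ra was lower in every IL-4Rα-/- library, with 137, 128.4 and 177 CPM (read counts scaled to library size by TMM) in IL-4Rα+/+ replicates 1 to 3 against 27.9, 79.4 and 31.8 in IL-4Rα-/- replicates 1 to 3. Its log2 fold change was -1.67 ± 0.41 (SE), with an edgeR adjusted p of 0.618 and a DESeq2 adjusted p of 0.0111. IL-4Rα-/- replicate 2 kept the highest level of the 3 knockout libraries. Monocyte markers (Csf1r, Lyz2 and 8 others) summed to between 15350 and 24610 CPM in the 6 libraries. Of 13849 genes tested with edgeR's quasi-likelihood test, 0 passed an adjusted p of 0.15, the threshold of the study (0%), while 1120 had an unadjusted p under 0.05 (8.09%, with 4.37% lower and 3.72% higher in IL-4Rα-/-). DESeq2 called 80 genes (0.571%) and limma-voom 0, and none of the 6 receptor genes was among the 80. The median log2 fold change of all genes tested was 0.01.

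At the single-gene level none of the 6 Fc receptor genes passed the test in either direction, and 0 of 6 had an unadjusted p under 0.05, against the 8.09% of all genes given above. CPM overlapped between the genotypes for all 6, whereas 15.5% of all genes tested did not overlap. The sizes that remained compatible with the data differed greatly between the genes, from a narrow interval for Fcer1g to one spanning several-fold for Fcgr4.

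**Figure D1:**
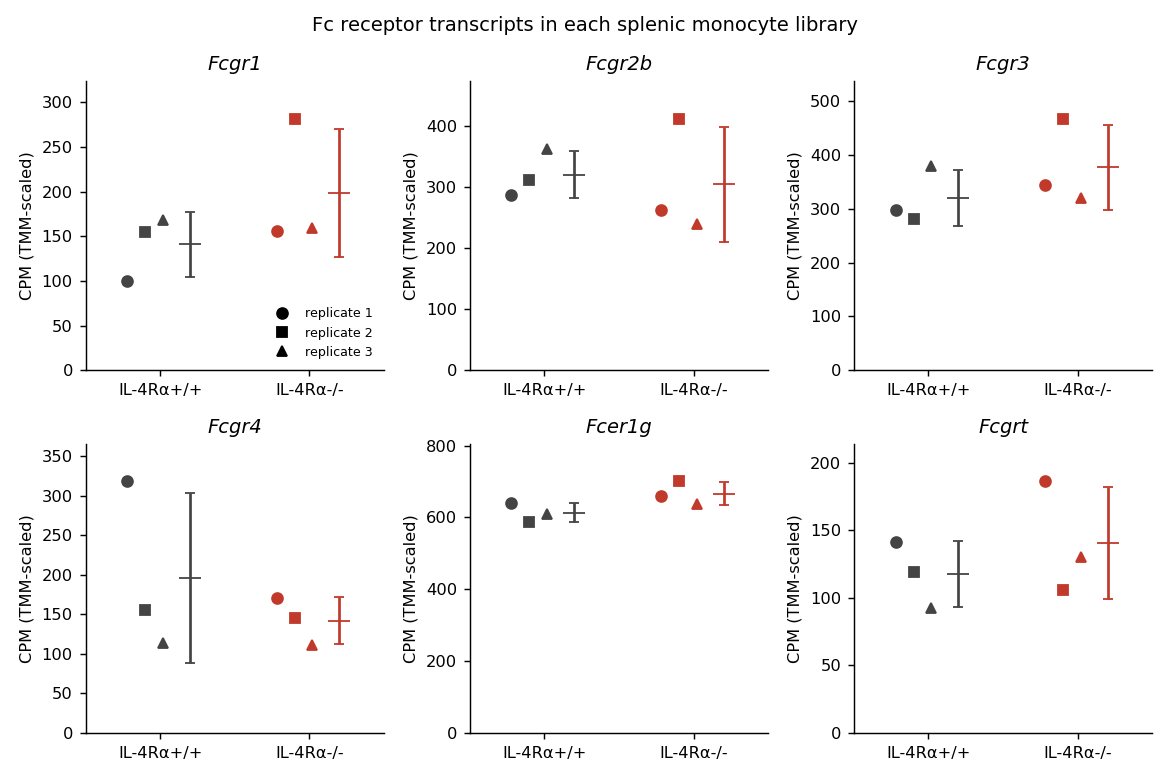
CPM of each Fc receptor gene in the 3 IL-4Rα+/+ (grey) and 3 IL-4Rα-/- (red) libraries, marker shape giving the replicate number and the bar the mean ± SD. Fcer1g lay between 588 and 700.2 CPM in all libraries, Fcgr4 was highest in IL-4Rα+/+ replicate 1 at 318 CPM, and Fcgr1, Fcgr2b and Fcgr3 were highest in IL-4Rα-/- replicate 2.

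The common γ chain, Fcer1g, is required for surface expression of the activating Fcγ receptors. It measured 640, 588 and 610 CPM in IL-4Rα+/+ replicates 1 to 3 and 660, 700.2 and 638 CPM in IL-4Rα-/- replicates 1 to 3. Only IL-4Rα+/+ replicate 1 reached into the range of the knockout libraries. The log2 fold change was 0.12 ± 0.08 (SE, 95% interval -0.06 to 0.30, edgeR adjusted p = 0.660). Of the 6 genes it had the narrowest interval. Once the dependence on transcript length had been taken out of each library, the value was -0.01, so its direction depended on that scaling.

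Fcgr1, the high-affinity receptor, measured 100.1, 154 and 168 CPM in IL-4Rα+/+ replicates 1 to 3 against 156, 282 and 159 CPM in IL-4Rα-/- replicates 1 to 3. The groups overlapped, with IL-4Rα+/+ replicate 1 the lowest and IL-4Rα-/- replicate 2 the highest. The log2 fold change of 0.50 ± 0.29 (SE, 95% interval -0.20 to 1.19, edgeR adjusted p = 0.652) was the largest positive value among the 6 genes and did not pass the test. These 2 libraries decided its size: it was 0.30 without IL-4Rα+/+ replicate 1, 0.16 without IL-4Rα-/- replicate 2 and -0.03 without both.

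Fcgr3 measured 298, 282 and 380 CPM in the IL-4Rα+/+ replicates and 344, 467 and 320.0 CPM in the IL-4Rα-/- replicates. IL-4Rα+/+ replicate 3 lay above 2 of the 3 knockout libraries. The log2 fold change was 0.24 ± 0.18 (SE, 95% interval -0.19 to 0.66, edgeR adjusted p = 0.707), and it was 0.05 without IL-4Rα-/- replicate 2.

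Fcgr4 measured 318, 156 and 114 CPM in the IL-4Rα+/+ replicates and 170.3, 145 and 111 CPM in the IL-4Rα-/- replicates. A single library, IL-4Rα+/+ replicate 1, set the control mean of 196 ± 108 CPM (SD, n = 3), against 142 ± 29.9 CPM (SD, n = 3) in the knockout. The log2 fold change was -0.46 ± 0.38 (SE, 95% interval -1.37 to 0.44, edgeR adjusted p = 0.727), and it was 0.07 without that library.

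Fcgr2b, the inhibitory receptor, measured 286, 312 and 362 CPM in the IL-4Rα+/+ replicates and 262, 411 and 239 CPM in the IL-4Rα-/- replicates. In 2 knockout libraries it was below all controls, and in the other, replicate 2, above all of them. The log2 fold change was -0.07 ± 0.22 (SE, 95% interval -0.59 to 0.44, edgeR adjusted p = 0.921). Without IL-4Rα-/- replicate 2 it was -0.35 (unadjusted p = 0.031, edgeR adjusted p = 0.851), which is the lowest unadjusted p that this gene reached when 1 library was left out.

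Fcgrt measured 141, 119 and 92.2 CPM in the IL-4Rα+/+ replicates and 186, 106 and 130.2 CPM in the IL-4Rα-/- replicates. The groups overlapped widely, with a log2 fold change of 0.26 ± 0.24 (SE, 95% interval -0.31 to 0.83, edgeR adjusted p = 0.748). Without IL-4Rα-/- replicate 1, the library with its highest level, the value was 0.00. It was 0.12 without IL-4Rα+/+ replicate 3, 0.41 without IL-4Rα+/+ replicate 1, 0.43 without IL-4Rα-/- replicate 2 and 0.59 without both of the last (edgeR unadjusted p = 0.0387, adjusted p = 0.766). Its partner B2m, which FcRn needs to reach the surface, had a log2 fold change of -0.08 ± 0.16 (SE, edgeR adjusted p = 0.872).

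**Figure D2:**
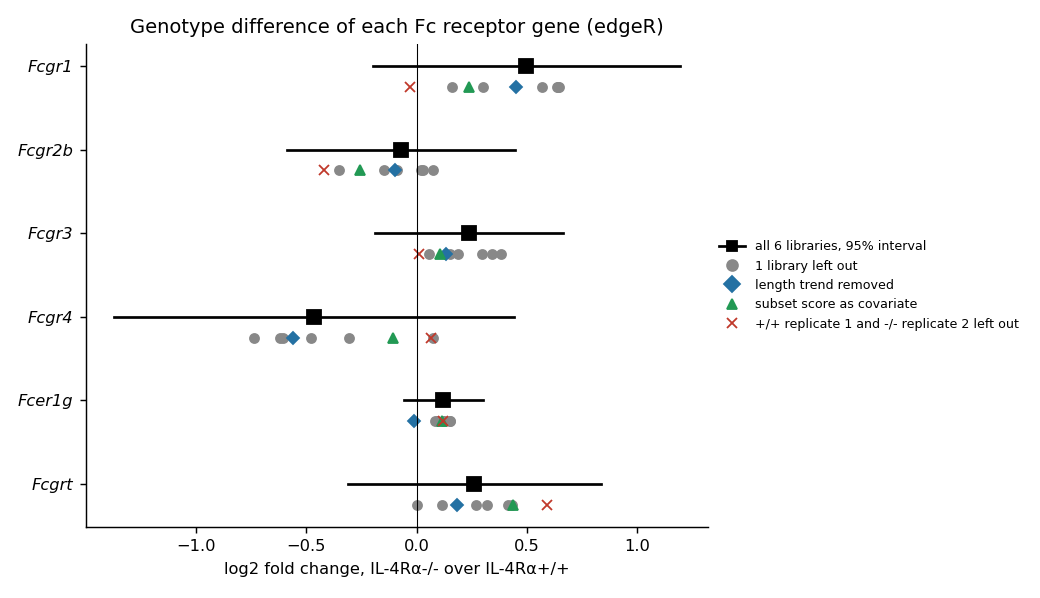
Log2 fold change (IL-4Rα-/- over IL-4Rα+/+) of each gene with its 95% interval over all 6 libraries (black), and under alternatives: 1 library left out (grey), length trend removed (blue), a monocyte subset score as covariate (green) and 2 libraries left out together (red cross). All 6 intervals include 0, and the point of Fcgr4 moves from -0.46 to 0.07 when IL-4Rα+/+ replicate 1 is left out.

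Per kilobase of exon, the γ chain was by far the most abundant of the transcripts, at 732 ± 44.7 CPM per kb over the 6 libraries (SD), followed by Fcgr3 at 200.7 ± 39.0 and Fcgr4 at 134 ± 61.0. These 3 levels kept their order with 2 other measures of length, although the ranges of Fcgr3 (162 to 269) and Fcgr4 (88.1 to 253) overlapped. Fcgr1 (65.6 ± 23.1), Fcgrt (61.4 ± 15.7) and Fcgr2b (53.9 ± 11.2 CPM per kb) followed and did not differ beyond their spread. Fcgr2b moved from the lowest of the 6 to the fourth, at 88.0 CPM per kb, when the longest annotated transcript (3544 bases) was used in place of all annotated exons (5790 bases). Level between genes was not tested.

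The balance of activating to inhibitory receptors was then taken inside each library, where differences in depth cancel. Reads of Fcgr1 per read of Fcgr2b were 0.350, 0.496 and 0.465 in IL-4Rα+/+ replicates 1 to 3 and 0.595, 0.685 and 0.666 in IL-4Rα-/- replicates 1 to 3. All 3 knockout libraries lay above all 3 controls, and the mean log2 ratio differed by 0.58, from -1.21 ± 0.27 to -0.63 ± 0.11 (SD, n = 3), or 1.498-fold. Reads of Fcgr3 per read of Fcgr2b were 1.04, 0.904 and 1.05 in the controls and 1.31, 1.14 and 1.34 in the knockout libraries. Again the groups did not overlap, and the mean log2 ratio differed by 0.34, from -0.01 ± 0.12 to 0.33 ± 0.13 (SD, n = 3), or 1.26-fold. For each of these ratios the exact permutation test, two-sided over 20 labelings, gave p = 0.10, the smallest p that 3 against 3 allows, and p = 0.20 after adjustment over 4 ratios, so neither passed.

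As the background for such a separation, 4.33% of 13848 other genes had a ratio to Fcgr2b that was higher in every knockout library than in every control, and 0.527% a ratio that was lower in every one. The groups did not overlap for 2 of the 15 possible pairs among the 6 genes, Fcgr1 and Fcgr3 each with Fcgr2b. These 2 pairs share Fcgr2b, and Fcgr1 and Fcgr3 varied together over the libraries (r = 0.83), so they are not 2 independent observations. The share over all pairs of genes was not taken, and for the CPM of single genes 15.5% did not overlap. Leaving out 1 library at a time, the difference in log2 ratio stayed between 0.43 and 0.68 for Fcgr1 and between 0.27 and 0.41 for Fcgr3. Removing the length trend gave 0.56 and 0.26, with no overlap between the groups. Set against the γ chain instead, Fcgr1, Fcgr2b and Fcgr3 each overlapped between the genotypes, with differences in mean log2 ratio of 0.35, -0.23 and 0.11.

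Over all 6 libraries Fcgr4 did not follow the other activating receptors, and this contrast rested on IL-4Rα+/+ replicate 1. The log2 ratio of Fcgr4 to Fcgr2b was 0.15, -0.999 and -1.67 in the controls and -0.62, -1.50 and -1.11 in the knockout libraries, which overlapped (difference -0.24, exact permutation p = 0.80). Without IL-4Rα+/+ replicate 1 the difference was 0.26, in the direction of Fcgr1 and Fcgr3. The 3 activating receptors summed per kilobase were 9.39, 6.43 and 5.99 times Fcgr2b in the controls and 8.70, 6.95 and 8.10 times in the knockout libraries. That sum did not differ beyond the spread (difference in log2 ratio 0.14, exact permutation p = 0.60, 0.80 adjusted over the 4 ratios). The difference was 0.34 without IL-4Rα+/+ replicate 1 and 0.02 without IL-4Rα+/+ replicate 3. The multiples depend on the length used. With the longest annotated transcript Fcgr2b rose from 53.9 to 88.0 CPM per kb and Fcgr3 from 200.7 to 258.7. The difference in log2 ratio was then 0.17 (exact permutation p = 0.50).

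**Figure D3:**
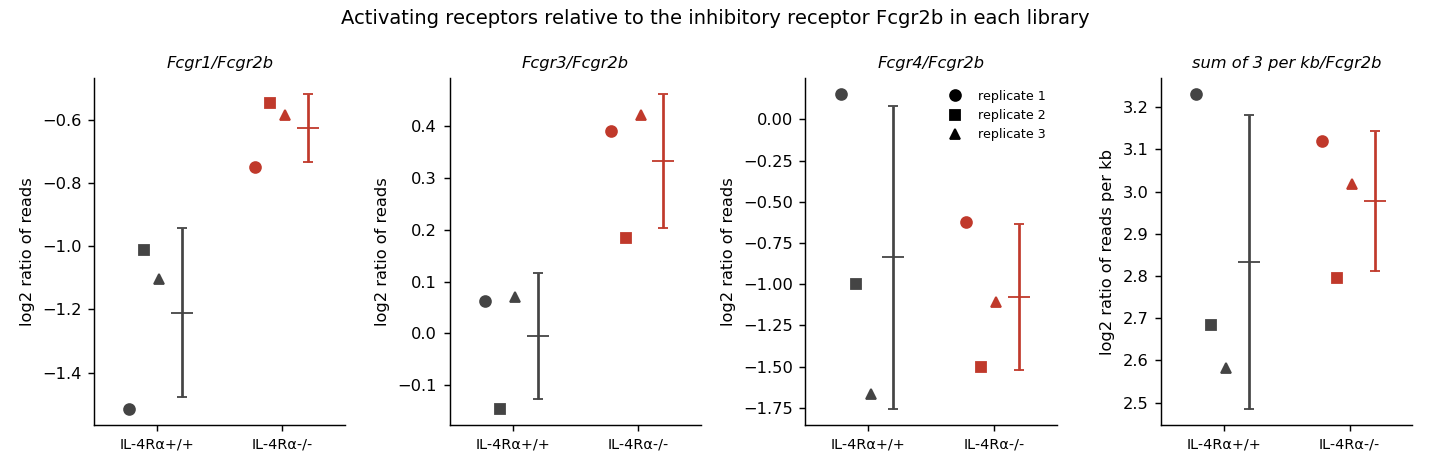
Log2 ratio of reads of Fcgr1, Fcgr3 and Fcgr4 to reads of Fcgr2b, and of the 3 summed per kilobase to Fcgr2b per kilobase, in each library. Bars are the mean ± SD of 3 libraries, and the axes do not start at 0. The ratios of Fcgr1 and Fcgr3 separate the genotypes (-1.51 to -1.01 against -0.75 to -0.55, and -0.15 to 0.07 against 0.18 to 0.42), while the others overlap.

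The libraries differed widely in their levels of monocyte subset markers, and the level of Fcgr1 followed them. Ly6C high markers (Ly6c2, Ccr2 and 6 others) summed to 2352, 5282 and 11580 CPM in the IL-4Rα+/+ replicates and to 4970, 12970 and 5721 CPM in the IL-4Rα-/- replicates. Ly6C low markers (Nr4a1, Ace, Treml4 and 7 others) summed to 10730, 8194 and 4851 CPM and to 7221, 3495 and 6699 CPM. No marker list here contains one of the 6 receptor genes, and neither sum separated the genotypes. By gene, 8 of 8 Ly6C high markers had a log2 fold change above 0 (median 0.43) and 10 of 10 Ly6C low markers one below 0 (median -0.41). Of these, 0 and 1 had an edgeR unadjusted p under 0.05. The medians were -0.58 and 0.26 without IL-4Rα+/+ replicate 1 and IL-4Rα-/- replicate 2 together. In bulk RNA, fewer cells of a subset and less RNA per cell cannot be told apart. The difference between the mean log2 CPM of the 2 lists, used as a score, ran from -1.93 in IL-4Rα+/+ replicate 1 to 2.68 in IL-4Rα-/- replicate 2.

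Fcgr1 rose with this score over the 6 libraries (r = 0.92 and rho = 1.00, exact permutation p = 0.0028 and adjusted p = 0.0222 over 8 relations for each), and r was 0.99 without the 2 libraries farthest from the median. Fcgr3 had r = 0.87 (exact permutation p = 0.025, adjusted 0.10) and rho = 0.89 (exact permutation p = 0.0333, adjusted 0.133), with r = 0.78 without those libraries. Fcgr2b (r = 0.73, rho = 0.49), Fcgr4 (r = -0.72, rho = -0.71), Fcgrt (r = -0.66, rho = -0.66) and Fcer1g (r = 0.33, rho = 0.31) did not pass, with exact permutation p between 0.0944 and 0.547 for r and between 0.136 and 0.564 for rho. Without the 2 farthest libraries r was 0.70, -0.65, -0.76 and -0.22 in that order. Of the libraries kept there, IL-4Rα+/+ replicate 3 had a score of 1.92 and the others scores between -0.22 and 0.17. Every r without the 2 farthest libraries, that of Fcgr1 included, therefore rests largely on IL-4Rα+/+ replicate 3. Each genotype has only 3 libraries, too few for a correlation within it. The score was added after the data were seen. The share of all genes with an r or rho like those of Fcgr1 was not taken, so the relation cannot be called particular to it. For the ratios, r was 0.61 for Fcgr1 to Fcgr2b (rho = 0.66, exact permutation p = 0.186 and 0.175, adjusted 0.248 and 0.280) and 0.08 for Fcgr3 to Fcgr2b (rho = 0.49, exact permutation p = 0.881 and 0.356, adjusted 0.881 and 0.406), and without the 2 farthest libraries -0.56 and -0.17.

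With the score as a covariate in the edgeR fit, the log2 fold change of Fcgr1 was 0.24 ± 0.13 (SE), that of Fcgr2b -0.26 ± 0.13, that of Fcgr4 -0.11 ± 0.32 and that of Fcgrt 0.44 ± 0.13, with edgeR adjusted p between 0.364 and 0.918 over the 6 genes. Fcgrt had an unadjusted p of 0.0131 in that fit. None passed the threshold.

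**Figure D4:**
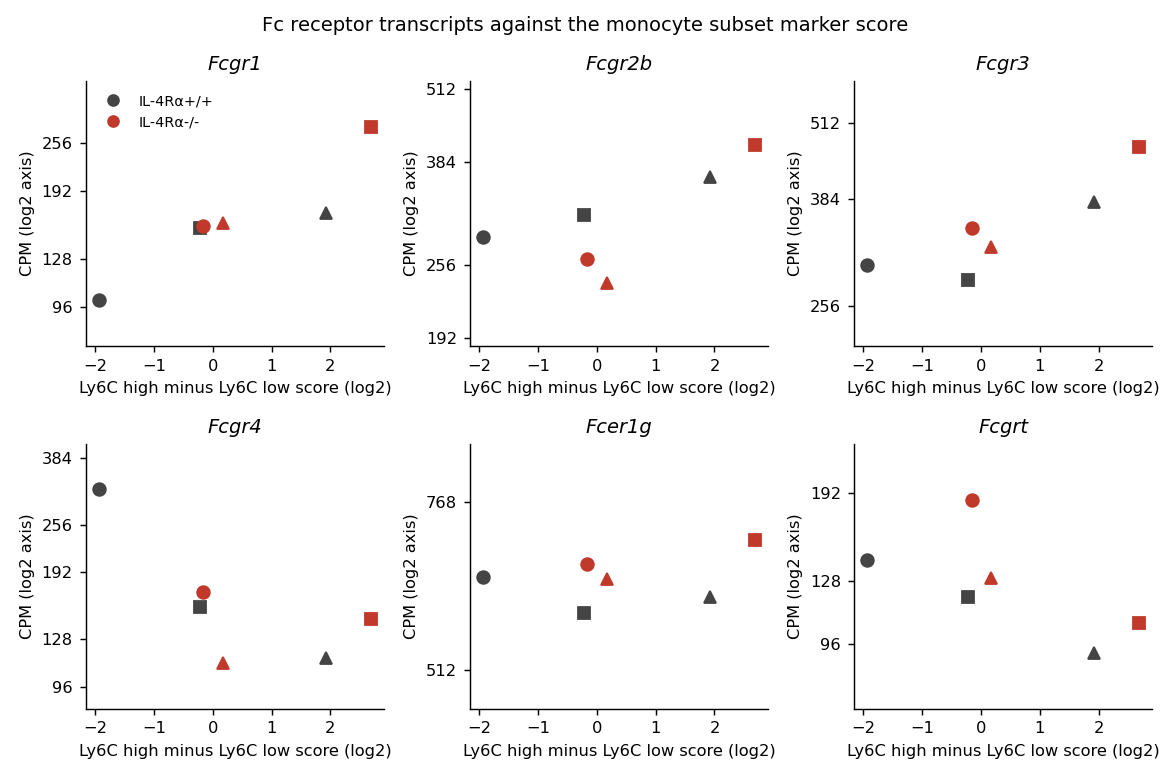
CPM of each gene (log2 axis) against the difference between the mean log2 CPM of Ly6C high and Ly6C low markers in the same library, with IL-4Rα+/+ in grey, IL-4Rα-/- in red and marker shape giving the replicate number. Fcgr1 rises from 100.1 CPM at a score of -1.93 to 282 CPM at 2.68, Fcgr4 is highest at the lowest score, and for Fcgr2b the knockout libraries with scores near 0 lie below the control with a score of -0.22.

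Markers of some other cells that carry Fc receptors stood higher in every knockout library. Red pulp macrophage markers summed to between 3781 and 4383 CPM in the controls and between 4885 and 7727 CPM in the knockout libraries. Of these, 7 of 11 were higher at an unadjusted p under 0.05 (3.72% of all genes were), among them C1qb (log2 fold change 0.63), Hmox1 (0.54) and Vcam1 (0.77), and none passed adjustment. Their count was 2 without IL-4Rα+/+ replicate 2, 3 without IL-4Rα+/+ replicate 3, 4 without IL-4Rα-/- replicate 1 and 7 to 9 without any one of the others. Fcgrt, Fcgr1 and Fcgr3 are expressed by macrophages too, and the part of these cells in the receptor values was not tested. Neutrophil markers summed to 60.0, 58.9 and 238 CPM in the controls and 194, 605 and 106 CPM in the knockout libraries, and overlapped. By gene, 5 of 9 neutrophil markers were higher at an unadjusted p under 0.05 (list median 1.88), among them S100a8 (log2 fold change 2.13), and this count was 0 without IL-4Rα-/- replicate 2, 1 without IL-4Rα+/+ replicate 2 and 2 without IL-4Rα+/+ replicate 1. Mmp8, at 170.5 CPM, made up most of the sum in IL-4Rα+/+ replicate 3. Erythroid markers summed to between 67.6 and 131 CPM in the controls and between 183 and 455 CPM in the knockout libraries, without overlap. By gene, 8 of 9 erythroid markers were higher at an unadjusted p under 0.05 (list median 1.43). This count was 3 without IL-4Rα-/- replicate 3, 4 without IL-4Rα+/+ replicate 1 or 3, 6 without IL-4Rα+/+ replicate 2 and 8 without either of the others. B cells, whose main Fcγ receptor is Fcgr2b, had markers summing to between 42.5 and 115 CPM in the controls and between 37.8 and 197 CPM in the knockout, and NK cell markers to between 10.9 and 37.5 and between 10.96 and 36.0 CPM. The summed eosinophil markers overlapped, with Ear2 the largest part of the sum in most libraries, while 3 of 7 were higher at an unadjusted p under 0.05 (Prg2, Ear1 and Ccr3, list median 0.95). The summed markers of T cells, plasma cells, dendritic cells and platelets also overlapped between the genotypes.

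Among 12 other Fc receptor genes, 9 were tested and 2 had an unadjusted p under 0.05, both in the direction of higher values in IL-4Rα-/-: Ms4a2 and Fcer1a, the β and α chains of the high-affinity IgE receptor. Their levels were minute. Ms4a2 had 1.30, 0.941 and 1.02 CPM in the controls and 3.78, 1.61 and 3.96 CPM in the knockout libraries (log2 fold change 1.52 ± 0.39 SE, edgeR adjusted p = 0.618, DESeq2 adjusted p = 0.0998). Fcer1a had 0.703, 0.289 and 0.831 CPM in the controls and 2.18, 0.946 and 1.83 CPM in the knockout libraries (1.44 ± 0.49 SE, edgeR adjusted p = 0.618, DESeq2 adjusted p = 0.350). Basophil and mast cell markers, a list that holds both genes, summed to between 12.3 and 27.8 CPM in the controls and between 38.1 and 70.3 CPM in the knockout libraries, with 8 of 9 higher at an unadjusted p under 0.05 (3.72% of all genes were) and 4 of 9 without IL-4Rα-/- replicate 1. Fcer1a and Ms4a2 are 2 of these 8. DESeq2 called 3 genes of this marker list, Ms4a2 among them. The part of such cells in the IgE receptor values was not tested. The other receptors did not reach that p, among them Fcrlb (0.67), Fcrla (1.11), and Fcer2a (0.66), the low-affinity IgE receptor of B cells, which lay under 1 CPM in 4 libraries and at 6.66 and 11.6 CPM in IL-4Rα+/+ replicate 2 and IL-4Rα-/- replicate 3. The 2 of 9 stood against 3.72% of all genes in that direction, and became 1 without IL-4Rα+/+ replicate 2, IL-4Rα-/- replicate 1 or IL-4Rα-/- replicate 3. The median log2 fold change of the list was 0.67, against 0.01 for all genes, but 0.17 by limma-voom, -0.018 under the replicate block, 0.00 without IL-4Rα-/- replicate 3 and 1.18 without IL-4Rα-/- replicate 1.

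Of the partners of the γ chain and related adaptors, 10 of 14 were tested, 2 had an unadjusted p under 0.05 with higher values in IL-4Rα-/- (3.72% of all genes did), and the median was 0.48. The count was 5 without IL-4Rα+/+ replicate 3 and 1 without IL-4Rα+/+ replicate 2, IL-4Rα-/- replicate 1 or IL-4Rα-/- replicate 3, and the median ran from 0.13 without IL-4Rα-/- replicate 2 to 0.77 without IL-4Rα+/+ replicate 3. Clec4n, which encodes Dectin-2, a fungal receptor that signals through the γ chain, measured 89.6, 73.4 and 78.1 CPM in the controls and 167, 173 and 127 CPM in the knockout libraries. These groups did not overlap (log2 fold change 0.95 ± 0.14 SE, edgeR unadjusted p = 0.000334 and adjusted p = 0.618, DESeq2 adjusted p = 3.9e-05). The other was Fcer1a. Pira2 (0.39) did not reach that p. Tyrobp, which encodes the adaptor DAP12, measured 905, 919 and 953 CPM in the controls and 969, 1062 and 971 CPM in the knockout libraries (0.11 ± 0.07 SE, edgeR adjusted p = 0.668).

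Downstream of the ITAM, all 22 genes were tested and 4 had an unadjusted p under 0.05, all with lower values in IL-4Rα-/- (4.37% of all genes did), for a median of -0.08. They were Cbl, a ubiquitin ligase that ends receptor signalling (-0.26), Vav3, a guanine nucleotide exchange factor (-0.36), Sos1, a Ras exchange factor (-0.20), and Plcg2, a phospholipase (-0.18). For each of these the knockout libraries lay below the controls, which adds little because the 4 were picked by their p. In the list 6 of 22 genes did not overlap between the genotypes, these 4 and Syk among them, against 15.5% of all genes tested. Syk measured 1071, 886 and 854 CPM in the controls and 802, 849 and 755 CPM in the knockout libraries (-0.22 ± 0.11 SE, edgeR adjusted p = 0.626). The count of 4 fell to 0 without IL-4Rα-/- replicate 1 and without IL-4Rα-/- replicate 3, to 1 without IL-4Rα+/+ replicate 1 or 2, and to 2 without IL-4Rα-/- replicate 2, under the replicate block or after the length trend was removed.

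Of the 10 genes of ITIM signalling, all tested, 0 had an unadjusted p under 0.05 in the edgeR fit, with a median of -0.12, and 3 did without IL-4Rα+/+ replicate 3, all with lower values in IL-4Rα-/-. Inpp5d measured 419, 404 and 397 CPM in the controls and 368, 378 and 371 CPM in the knockout libraries. The groups did not overlap, at a small difference (-0.13 ± 0.06 SE, edgeR adjusted p = 0.632). Its relative Inppl1 had -0.15 (edgeR adjusted p = 0.618), and Dok2 (0.57) and Cblb (-0.41), both negative regulators of signalling, had wider spread.

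In the other lists 1 gene each had an unadjusted p under 0.05, all with lower values in IL-4Rα-/- and all with an edgeR adjusted p of 0.618. Among 8 partners of FcRn and genes of antibody presentation it was Cd74, the MHC class II chaperone (-0.37, list median 0.02). Among 15 genes of the phagocytic machinery it was Dock2, a Rac exchange factor (-0.27, list median 0.02). Among 17 regulators of Fc receptor genes it was the interferon-induced factor Irf1 (-0.18, list median -0.17). That count was 4 after the length trend was removed or without IL-4Rα+/+ replicate 3, 2 without IL-4Rα-/- replicate 1 or 2, and 0 without IL-4Rα+/+ replicate 1 or 2. For the FcRn partners it was 0 under the replicate block and without IL-4Rα+/+ replicate 1 or 2 or IL-4Rα-/- replicate 2 or 3, and for the phagocytic machinery 0 under the block and without IL-4Rα+/+ replicate 2 and 2 without IL-4Rα-/- replicate 3. Over the 7 lists, 10 of 90 genes tested (11.1%) had an unadjusted p under 0.05, 3 with higher and 7 with lower values, against 8.09% of all genes, and 0 passed adjustment in edgeR. DESeq2 called 2 genes of these lists, Clec4n and Ms4a2, against 0.571% of all genes. The count of 10 ranged from 3 without IL-4Rα+/+ replicate 2 to 19 without IL-4Rα+/+ replicate 3.

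**Figure D5:**
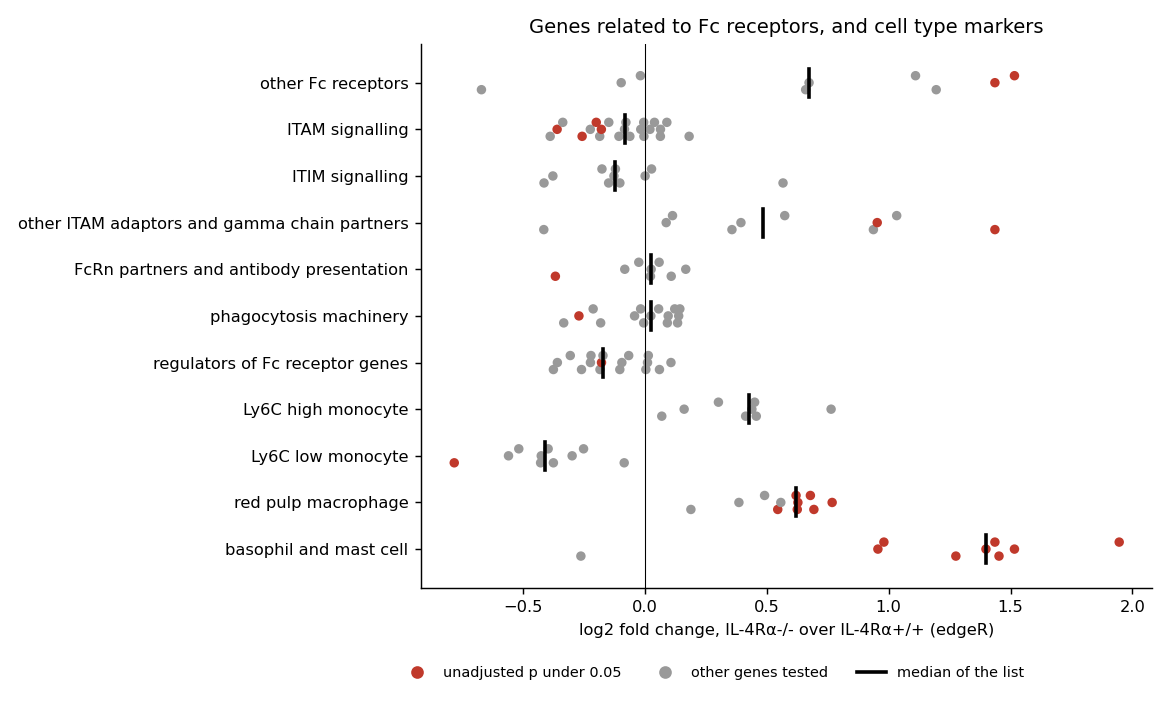
Log2 fold change (IL-4Rα-/- over IL-4Rα+/+) of each tested gene in the lists of related genes and in 4 marker lists, red where the unadjusted p is under 0.05, with the median of the list as a black line. Basophil and mast cell markers (median 1.40) and red pulp macrophage markers (0.62) lie to the right, and the signalling lists lie near 0 (-0.08 for ITAM and -0.12 for ITIM signalling).

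The proximal promoters (RefSeq, GRCm38.p6, 250 bases before to 50 after the start) were searched on both strands for strings bound by myeloid factors. GAGGAAGT, a core bound by PU.1, occurred in 3.20% of 32851 promoters and in that of Fcgr4 on the opposite strand. TTGCNNAA, a string bound by C/EBP factors, occurred in 10.8% and in those of Fcgr3 and Fcgrt. The promoter of Fcgr4 (chr1:171018676-171018975, plus strand) is given 5′ to 3′ because this gene had the widest spread among the controls, with the match in capitals.
Fcgr4: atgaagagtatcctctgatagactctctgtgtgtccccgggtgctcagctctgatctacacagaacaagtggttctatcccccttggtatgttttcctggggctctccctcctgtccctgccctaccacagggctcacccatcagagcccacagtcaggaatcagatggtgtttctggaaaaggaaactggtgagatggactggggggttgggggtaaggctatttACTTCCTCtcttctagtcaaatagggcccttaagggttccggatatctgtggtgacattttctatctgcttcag
A match is a string of letters in this window and not a measured site.

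By pattern over the 6 libraries, the genes most like each receptor were ranked by Pearson's r of log2 CPM among 8608 others with a mean of at least 10 CPM. For Fcgr1 they were Zmpste24, Trim30c and Ndufs4 (r = 0.99 to 1.00), for Fcgr3 Tcn2, Hacd2 and Prkra (each 0.995), and for Fcgr2b Pigs, Dus1l and Tubgcp3 (0.98 to 0.99). For Fcgr4 they were Sdha, Cdk17 and Per1 (0.98 to 0.99), for Fcer1g Mt1, Apool and Yaf2 (each 1.00), and for Fcgrt Stab2, Jup and Vamp5 (0.99). With 6 points and 8608 genes, values this high arise readily, and they are given as a description. None of the 18 was itself an Fc receptor gene. Between the receptors, r was highest for Fcgr1 with Fcgr3 (0.83) and lowest for Fcgr2b with Fcgrt (-0.73).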

How the data were processed

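Poly(A) RNA of splenic monocytes was sequenced in 6 libraries from 6 mice, 3 per genotype (NEBNext directional libraries, single reads of 75 bases). Per the methods of the study, the authors aligned reads to GRCm38 with STAR 2.6.1a and the Gencode mV23 annotation and deposited the counts per gene that STAR made. The strand column they kept and the treatment of overlaps are not given in the sources used here. Reads with several matches were left out of the gene counts. They made up 8.30%, 8.32% and 8.86% in IL-4Rα+/+ replicates 1 to 3 and 9.19%, 9.35% and 9.02% in IL-4Rα-/- replicates 1 to 3. Reads that fell on no annotated gene made up 10.9%, 11.7% and 10.3% against 9.12%, 8.87% and 9.68%. Both shares separated the genotypes, and their bearing on the receptor values and ratios was not tested.

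Gene names, lengths and positions came from Gencode M21 (GRCm38; 55240 of 55421 identifiers matched; Pira6, Pira11 and Ahsp had no match). Genes were filtered with filterByExpr (minimum count 10), scaled by TMM and tested with edgeR 4.0.16 (R 4.3.3, quasi-likelihood, Benjamini-Hochberg over 13849 genes, threshold 0.15). Alternatives were DESeq2 1.42.0, limma-voom (limma 3.58.1), DESeq2 size factors, no filter, a replicate block, leaving out each library, and removal of a loess trend (span 0.5) of log2 CPM on transcript length. The subset score, its use as a covariate, the ratios to Fcer1g and the fit without 2 libraries were added after seeing the data. Ratios used counts within a library and an exact permutation test over 20 labelings. Log2 CPM used a prior count of 2. The scripts were tested on simulated data.

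The receptor genes and all gene lists were chosen with earlier results of these data known. Genes named in the text are the 6 receptors, Il4ra, Tyrobp, B2m, Syk, Inpp5d and Fcer2a, up to 4 genes of each list with the smallest p, and the 3 genes most like each receptor; marker examples and the ratio to Fcer1g were picked after their values were seen. Replicates are labelled by number only, and p-values measure the spread between these mice. Other promoter motifs that were searched are not reported here. A single read was worth 0.0344 to 0.0373 CPM.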

Additional observations from a re-analysis of the deposited data

How the results depend on the processing

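None of the 6 receptor genes passed the threshold in any of 14 alternative fits, with adjusted p between 0.364 and 0.998. Of the 84 log2 fold changes from these fits, 77 kept their direction. Changes of sign were seen for Fcgr1 (-0.030) and Fcgr4 (0.063) without IL-4Rα+/+ replicate 1 and IL-4Rα-/- replicate 2 together (a fit in which edgeR gave Fcgr2b -0.42, unadjusted p = 0.0138, and Fcgrt 0.59, unadjusted p = 0.0387, both with adjusted p = 0.766), for Fcer1g after removal of the length trend (-0.012), and in fits that left out 1 library. Over those the log2 fold change of Fcgr2b ran from -0.35 to 0.075 (0.027 without IL-4Rα+/+ replicate 3, 0.019 without IL-4Rα-/- replicate 1, 0.075 without IL-4Rα-/- replicate 3) and that of Fcgr4 from -0.74 to 0.074. The log2 ratio of Fcgr4 to Fcgr2b ran from -0.66 to 0.26. The other receptors and ratios kept their direction in those fits. DESeq2 called 80 genes where edgeR called 0, and the cause was not tested. With the longest transcript as length, Fcgr2b, Fcgr3 and Fcer1g stood at 88.0, 258.7 and 936 CPM per kb, since fewer bases divide the same reads. The 10 genes of the lists with an unadjusted p under 0.05 became 6 with the replicate block, 5 without both named libraries, and 3 to 19 without 1 library (5, 3 and 19 without IL-4Rα+/+ replicate 1, 2 and 3, and 6 and 5 without IL-4Rα-/- replicate 1 and 3). Without the 2 libraries farthest from the median score, the correlations of Fcer1g, Fcgr1 to Fcgr2b and Fcgr3 to Fcgr2b with the score turned to -0.22, -0.56 and -0.17. Those values rest largely on IL-4Rα+/+ replicate 3, whose score was far from the other libraries kept. Same-numbered libraries deviated from their group means with correlations of 0.185, -0.271 and -0.296, and differently numbered ones with -0.273 to 0.462. With 3 libraries per genotype these values cannot decide whether replicate numbers pair the mice. Under the replicate block the exact sign-flip p of the Fcgr1 and Fcgr3 ratios was 0.25, the smallest it allows.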
